A study of Homo sapiens with 6 samples.

Results

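The 37 genes described here encode the machinery that drives a cell through its division cycle. They were taken as a list of named genes from the 20041 genes with a symbol on the array, and each was read from its brightest detected probe. They fall into 11 genes of G1 and of the entry into S phase (the cyclins D and E, their kinases CDK4, CDK6 and CDK2, the phosphatase CDC25A and the transcription factors E2F1 and E2F2), 11 genes of DNA replication in S phase (CDC6, CDC45, MCM2 to MCM7, PCNA, TYMS and RRM2) and 15 genes of G2 and mitosis, called mitotic here (CCNA2, CCNB1, CCNB2, CDK1, PLK1, AURKA, AURKB, BUB1, BUB1B, CDC20, UBE2C, CENPA, CENPF, TOP2A and MKI67). The cells were GEN2.2, a human line from a leukaemia of plasmacytoid dendritic cells, taken from cultures in log phase. Each of 6 Illumina HumanHT-12 v4 arrays read the transcripts of 1 sample, 3 of cells with no treatment and 3 of cells given 1 µM ODN2006, a synthetic CpG oligonucleotide that activates Toll-like receptor 9, for 2 h. All arrays are of this 1 line, no control oligonucleotide was included, and the labels do not say whether replicates were separate cultures, so every p-value rests on a spread between samples that could be technical. The labels used here give no time for the untreated cells, so whether they were matched to the 2 h is not known.

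In G1, cyclins of the D type pair with CDK4 or CDK6 and cyclin E with CDK2 to phosphorylate the retinoblastoma protein, which releases E2F factors and with them the genes of DNA replication. The genes of mitosis are switched on later, in G2, from promoters in which NF-Y binds CCAAT boxes and the DREAM and MuvB complexes bind the cell cycle genes homology region (CHR). Cyclin D genes respond to signals from outside the cell, while most other genes of the set follow the cycle itself. The arrays average over whole cultures, so fewer cells in a phase and less RNA per cell cannot be told apart.

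Each array detected 28.5% to 32.7% of its 47218 probes, at a detection p under 0.01. Values are given as normalized log2 intensities. Within a group, Pearson's r between arrays lay between 0.983 and 0.991 over tested probes, and no arrays held identical values. Of the markers of plasmacytoid dendritic cells, 14 of 15 were detected on all untreated arrays, among them CLEC4C at 6.87 ± 0.23 (SD, n = 3), IL3RA at 7.64 ± 0.25 and TLR9 at 7.16 ± 0.20, while LILRA4 was detected on 1 ODN2006 array only. The line also carried markers of monocytes and conventional dendritic cells, with 5 of 9 tested, CD14 at 10.60 ± 0.14 and CD1C at 12.46 ± 0.13 untreated. Of 9 markers of T and NK cells 4 were detected on all 6 arrays, CD3G at 5.78 ± 0.06, CD5 at 8.16 ± 0.08, CD6 at 9.07 ± 0.08 and NKG7 at 6.11 ± 0.12 untreated, while no probe of CD3D or CD3E was detected on any array. Of 4 B cell markers on the array CD79A at 5.60 ± 0.18 and CD79B at 7.91 ± 0.21 were detected on all arrays, and PAX5 on none. None of these markers passed the test between the groups, and with the replicate number as a block the plasmacytoid marker NRP1 did (change -0.57, limma adjusted p = 0.0440).

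In the untreated, proliferating line nearly the whole cell cycle set was expressed. Of the 37 genes, 35 were detected on all 6 arrays, against 7964 of the 20041 genes with a symbol. The genes tested were 94.6% of the set and 43.4% of all genes with a symbol. The 2 others were CCNE2, the gene of cyclin E2, and CDC6, which loads the MCM helicase onto replication origins, and each was measured by a single probe that was detected on no array. The raw signals of CCNE2 were 95.3, 94.5 and 98.3 on the untreated arrays and 95.6, 96.1 and 103 on the ODN2006 arrays, below the array medians of 107 to 121. Those of CDC6 were 120, 116 and 113 untreated and 111, 122 and 117 after ODN2006. PCNA and CCNE1, each detected on all arrays at another probe, also had a probe that was detected on no array. In all, 45 of the 51 probes for the set were detected on all 6 arrays, 4 on none and 2 on 1 array.

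Untreated levels of the 10 detected G1 genes ran from 5.81 for CCND2 to 11.74 for CDK4, those of the 10 detected S genes from 7.47 for RRM2 to 12.55 for MCM7, and those of the 15 mitotic genes from 6.60 for PLK1 to 11.27 for UBE2C. Probes differ in how strongly they bind, so these levels are not ordered between genes. The 3 untreated arrays agreed closely for most members, with a median SD of 0.13 against 0.16 over all tested genes. The median untreated level was 9.92 for the members against 7.75 over all tested genes, so these SDs are not compared at an equal level. The smallest SD was that of CCNB2, the gene of cyclin B2 (10.12 ± 0.02). The largest were those of PLK1, the mitotic polo-like kinase (6.60 ± 0.43), and BUB1B, a kinase of the spindle checkpoint (7.62 ± 0.43).

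**Figure D1:**
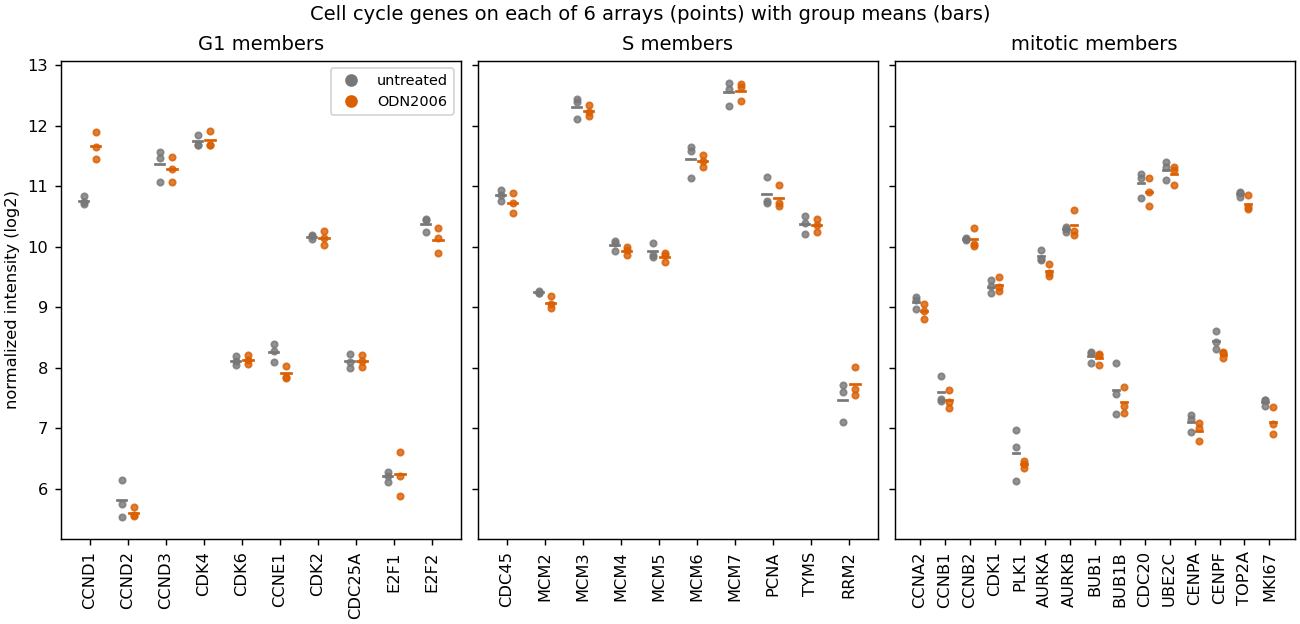
Normalized log2 intensity (vertical axis) of the 35 detected cell cycle genes on each of the 6 arrays, grey for untreated and orange for ODN2006, with bars for the group means of 3 arrays. CCND1 is the member whose ODN2006 values all lie well above its untreated values, from 11.44 to 11.89 against 10.71 to 10.84.

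What the G1, S and mitotic genes share beyond their role was read from their promoters. RefSeq promoter windows of GRCh38.p14, 250 bases before to 50 after the start, were found for 29 of the 37 genes, and not for CCND1, CCND2, CCNE2, CDK2, MCM4, MCM5, AURKA and UBE2C. Windows were searched on both strands for an E2F element (TTTGGCGC, TTTCCCGC, TTTGCCGC or TTTCGCGC), for the CHR element (TTTGAA) and for the CCAAT box (CCAAT), none of which contains another, although matches may overlap, and a gene with several windows was counted if any of them held the motif. Promoters are shown as the 250 bases before the start, 5′ to 3′ on the strand of the gene, with motif matches in capitals: E2F2 and MCM3 for the E2F element, CCNB2 and TOP2A for the CHR element with CCAAT boxes, and FBXO5, a cell cycle gene outside the set that fell after ODN2006.
E2F2, chr1:23531234-23531483, minus strand: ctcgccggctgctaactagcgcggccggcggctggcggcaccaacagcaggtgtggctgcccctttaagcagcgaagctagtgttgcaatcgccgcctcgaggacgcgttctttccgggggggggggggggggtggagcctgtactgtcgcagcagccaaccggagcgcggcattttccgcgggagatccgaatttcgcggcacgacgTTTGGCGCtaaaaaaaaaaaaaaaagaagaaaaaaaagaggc
MCM3, chr6:52284743-52284992, minus strand: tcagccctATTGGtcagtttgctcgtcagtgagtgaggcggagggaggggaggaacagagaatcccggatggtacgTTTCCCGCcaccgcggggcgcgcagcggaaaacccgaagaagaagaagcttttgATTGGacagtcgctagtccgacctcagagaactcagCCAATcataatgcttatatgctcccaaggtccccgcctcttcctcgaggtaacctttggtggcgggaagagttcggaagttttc
CCNB2, chr15:59104896-59105145, plus strand: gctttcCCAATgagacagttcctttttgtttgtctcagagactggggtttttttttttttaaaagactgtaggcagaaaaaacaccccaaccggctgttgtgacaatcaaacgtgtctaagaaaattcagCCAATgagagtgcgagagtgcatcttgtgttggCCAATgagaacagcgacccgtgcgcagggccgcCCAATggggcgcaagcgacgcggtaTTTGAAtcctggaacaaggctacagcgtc
TOP2A, chr17:40417897-40418146, minus strand: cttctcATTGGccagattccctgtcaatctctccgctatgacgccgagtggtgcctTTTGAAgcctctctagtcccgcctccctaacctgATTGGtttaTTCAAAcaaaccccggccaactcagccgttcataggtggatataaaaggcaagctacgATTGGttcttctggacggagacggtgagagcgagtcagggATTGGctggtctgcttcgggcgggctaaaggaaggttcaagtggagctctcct
FBXO5, chr6:152983042-152983291, minus strand: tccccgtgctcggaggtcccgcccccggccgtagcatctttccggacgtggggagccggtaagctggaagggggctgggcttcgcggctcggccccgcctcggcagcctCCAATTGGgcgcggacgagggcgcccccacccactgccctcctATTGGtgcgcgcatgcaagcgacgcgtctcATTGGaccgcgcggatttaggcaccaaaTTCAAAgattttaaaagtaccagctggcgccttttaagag

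In these promoters the E2F element of E2F2 lies at position -42 from the start of the transcript. That of MCM3 lies farther away, at -174. The CHR element of CCNB2 lies at -29 and that of FBXO5 at -40, while those of TOP2A lie at -194 and -151. FBXO5 has 2 windows, and the window with the most kinds of motif was printed, or the first by position in a tie. Promoters of the other cell cycle genes that fell are not shown. An E2F element was found for 7 of 9 S genes with a window (77.8%), 3 of 7 G1 genes and 2 of 13 mitotic genes, against 3.99% of 27305 genes. The CHR element was found for 9 of 13 mitotic genes (69.2%) and for none of the 16 G1 and S genes, against 18.2% of all genes. CCAAT boxes were found for 12 of 13 mitotic genes and 7 of 9 S genes, against 39.7% of all genes. For the G1 genes it was 3 of 7 (42.9%), near the share of all genes. A match describes the letters and is not evidence of binding. The 11 tested members with an E2F element had a median log2 change of -0.04 after ODN2006, beside -0.05 over all tested genes. The 9 with a CHR element, all mitotic, had a median of -0.16, beside -0.15 for the mitotic members as a whole. None of these members passed the test described next, and a link between motif and change was not tested.

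**Figure D2:**
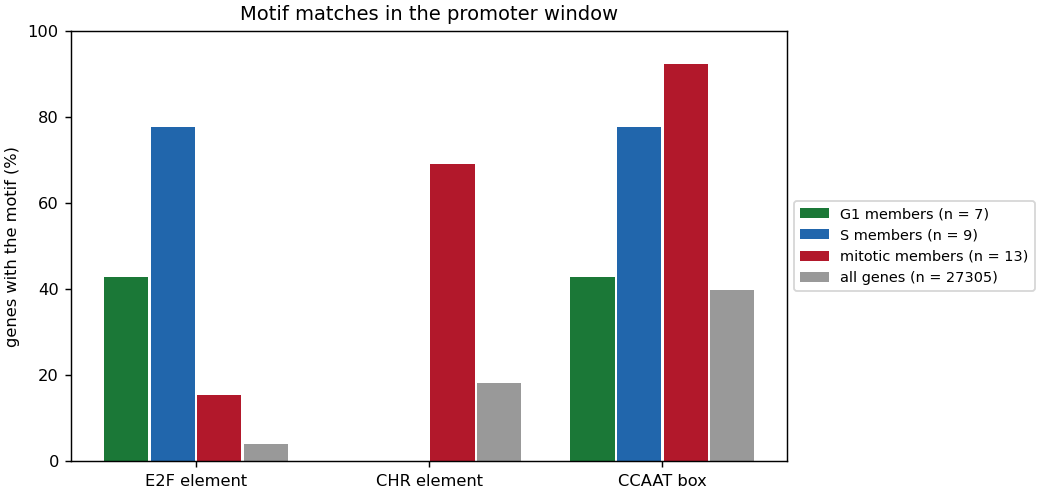
Share of genes (vertical axis, percent) whose promoter window holds an E2F element, a CHR element or a CCAAT box, for the G1, S and mitotic members and for all genes with a window. The E2F element is found for 77.8% of the S genes and the CHR element for 69.2% of the mitotic genes, against 3.99% and 18.2% of all genes.

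After 2 h of ODN2006, 1 gene of the set passed the test, that of cyclin D1. CCND1 rose, and none of the other 34 tested genes passed (limma with Benjamini-Hochberg adjustment over all tested probes, adjusted p from 0.276 to 0.999). This was 1 rise in 35 (2.86%) and no fall, where 3.41% of all 8706 tested genes rose and 1.81% fell, so the counts lie near the background. At an unadjusted p under 0.05 there was 1 rise and 1 fall, where 6.55% of all genes lay higher and 8.67% lower, and with the replicate number as a block there were again 1 rise and no fall, against 4.65% and 4.11% of all genes. For each of the 34 genes the 95% interval of the change lay within 1 log2 unit of 0, that is within a doubling or halving, and for 28 of them within a factor of 1.5. Taken over these genes, the intervals reached at most to a 1.59-fold drop and a 1.60-fold rise. The intervals and calls are per gene, at its brightest probe, and the intervals are not adjusted for the number of genes. The dimmer probe of UBE2C, described below, changed by -0.85 and passed as lower.

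**Figure D3:**
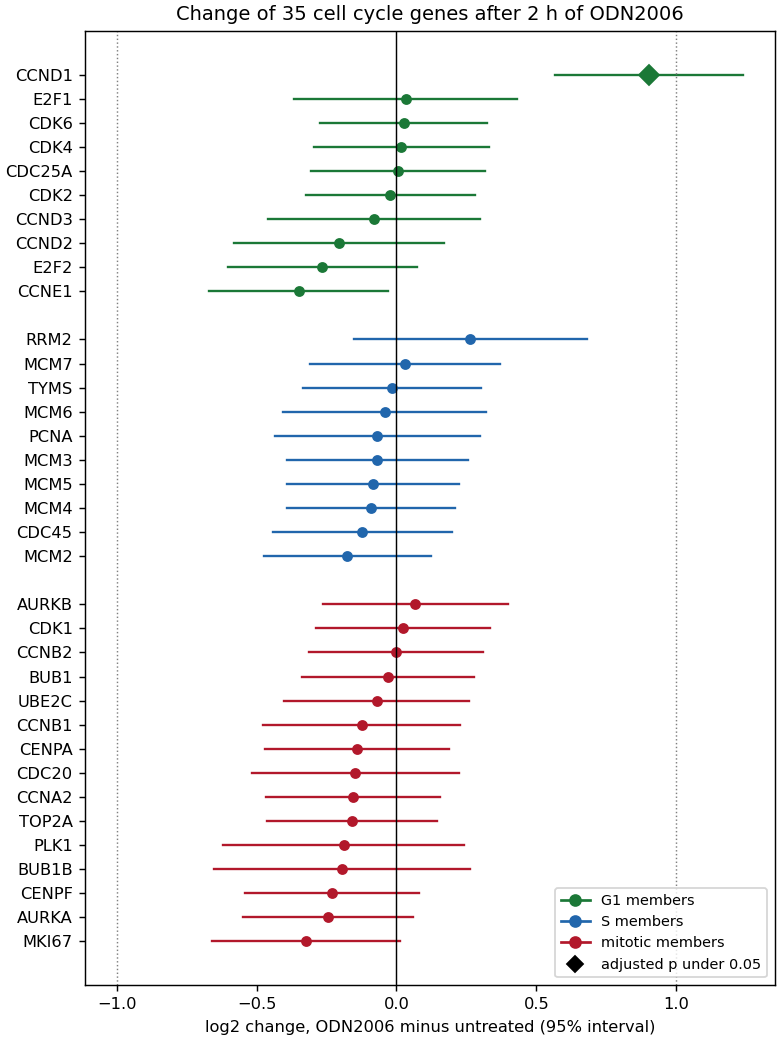
Log2 change of each detected member at its brightest probe after ODN2006 (horizontal axis, ODN2006 minus untreated) with its 95% interval. Members are grouped into G1, S and mitotic genes and sorted by size. The diamond marks CCND1 at 0.90, the member that passed at an adjusted p under 0.05, and the intervals of the other 34 stay between the dotted lines at -1 and 1.

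Among the genes of G1, CCND1, whose product starts the passage through G1 with CDK4 and CDK6, stood at 10.71, 10.84 and 10.73 on the untreated arrays and at 11.44, 11.65 and 11.89 on the ODN2006 arrays. The groups do not overlap, and the ODN2006 values are more spread (SD 0.23 against 0.07). The change was 0.90 ± 0.15 (SE) on the log2 scale, 1.87-fold, with a 95% interval of 0.57 to 1.24 (limma adjusted p = 0.00379, and 0.00216 with the replicate block), and it was higher in 3 of 3 same-numbered pairs. CCND1 has 1 probe on the array. The other D cyclins did not pass. CCND2 was dim, at 5.53, 6.14 and 5.74 untreated and 5.56, 5.54 and 5.70 after ODN2006, with a change of -0.21 (interval -0.58 to 0.17). CCND3 was bright and differed by -0.08 (interval -0.46 to 0.30). The intervals of both lie below that of CCND1, although the difference between the cyclins was not tested. The partner kinases CDK4 and CDK6 differed by 0.02 and 0.03, and CDK6 gave 8.19, 8.10 and 8.04 untreated and 8.12, 8.21 and 8.07 after ODN2006, with overlapping groups.

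Further into G1, CCNE1, the cyclin E1 gene and a classic E2F target, had the lowest change of the set. Its values were 8.10, 8.27 and 8.39 untreated and 7.85, 8.03 and 7.82 after ODN2006. Every ODN2006 value lay below every untreated value, but the change of -0.35 ± 0.15 (SE) did not pass (limma adjusted p = 0.276, and 0.122 with the replicate block). E2F2, an activating E2F, had 10.46, 10.44 and 10.23 against 10.30, 10.14 and 9.90, a change of -0.27 with groups that overlap. E2F1 was measured at 6.21, 6.12 and 6.28 untreated and 5.88, 6.22 and 6.61 after ODN2006, where the ODN2006 arrays reach both above and below the untreated ones and the change is 0.03. CDK2 and CDC25A, the kinase of cyclin E and the phosphatase that activates it, differed by -0.02 and 0.01. The median change of the 10 G1 genes was -0.01, against -0.05 over all tested genes.

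Among the S phase genes none passed, 8 lay below 0 and 2 above, and the median change was -0.07. The 6 subunits of the MCM helicase, which unwinds DNA at the replication fork, had changes from -0.18 to 0.03, with intervals from -0.47 to 0.37. MCM2 gave 9.27, 9.23 and 9.24 untreated and 9.18, 9.06 and 8.99 after ODN2006, which do not overlap, with a change of -0.18 that did not pass. MCM4 gave 10.05, 10.10 and 9.92 against 9.86, 9.94 and 10.00, with groups that overlap (change -0.09). At its brightest probe, MCM7 had 12.61, 12.71 and 12.33 against 12.65, 12.69 and 12.41, which fall on top of each other (change 0.03).

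CDC45, which joins the MCM ring in the active helicase, had 10.86, 10.94 and 10.76 untreated and 10.56, 10.89 and 10.73 after ODN2006, a change of -0.12 that was -0.04 without ODN2006 replicate 1. PCNA, the sliding clamp of the DNA polymerases, and TYMS, the thymidylate synthase, differed by -0.07 and -0.02. RRM2, the small subunit of ribonucleotide reductase and the S phase gene with the highest change, stood at 7.10, 7.59 and 7.71 untreated and 7.54, 7.64 and 8.01 after ODN2006. Its groups overlap, each same-numbered pair was higher after ODN2006, and the change of 0.26 ± 0.19 (SE) did not pass (limma adjusted p = 0.633, and 0.244 with the replicate block).

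The mitotic genes lay slightly lower as a group, with 13 of 15 below 0 and a median change of -0.15, against -0.05 over all tested genes, of which 61.0% lay below 0. These 15 genes share the same 6 arrays and none passed, and the lean of the whole set depends on the scaling, as given below. Beside them, the 5 tested markers of monocytes and conventional dendritic cells all lay below 0 and were lower in all 3 same-numbered pairs, with a median change of -0.25 and none passing. Their summed linear level ran from 10649 to 12007 on the untreated arrays and from 8402 to 11070 on the ODN2006 arrays, and FCN1, S100A8, CLEC9A and XCR1 were detected on no array. S100A9, among the tested markers, was dim, at 5.50 untreated and 5.23 after ODN2006, and was detected on 1 ODN2006 array. The 14 tested plasmacytoid markers had a median change of 0.03, with 6 below 0 and 8 above. Their summed level ran from 13663 to 15745 untreated and from 15368 to 16074 after ODN2006. The sum of the 4 tested T and NK cell markers ran from 903 to 993 untreated and from 731 to 1050 after ODN2006. That of the 2 tested B cell markers ran from 262 to 330 and from 246 to 285. The relation of any of these markers to the mitotic values was not tested. MKI67, whose protein is the Ki-67 proliferation antigen, had 7.47, 7.46 and 7.36 untreated and 6.90, 7.35 and 7.07 after ODN2006. Its groups do not overlap, with ODN2006 replicate 2 just below the lowest untreated array, and the change of -0.32 ± 0.15 (SE) did not pass (limma adjusted p = 0.362, and 0.169 with the replicate block). AURKA, the spindle pole kinase, gave 9.78, 9.79 and 9.94 against 9.71, 9.52 and 9.56, a change of -0.24 with separate groups. Its other probe changed by -0.18 with groups that overlap, at 9.58, 9.45 and 9.67 against 9.60, 9.31 and 9.24. CENPF, a kinetochore protein, gave 8.42, 8.61 and 8.31 against 8.24, 8.25 and 8.15, a change of -0.23 with separate groups. These were the 3 mitotic genes whose groups did not overlap at the brightest probe, and none of them passed there.

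At the other end, AURKB, the kinase of the chromosomal passenger complex, had 10.25, 10.33 and 10.29 untreated and 10.61, 10.26 and 10.20 after ODN2006, a change of 0.07 that was -0.06 without the 1 high array. CDK1, the kinase that drives entry into mitosis, had 9.23, 9.34 and 9.45 against 9.49, 9.27 and 9.33, with overlapping groups and a change of 0.02. Its partners differed by -0.15 for CCNA2, -0.12 for CCNB1 and 0.00 for CCNB2. TOP2A, the topoisomerase that untangles sister chromatids, differed by -0.16 and CDC20, which activates the anaphase-promoting complex, by -0.15. CENPA, the histone of the centromere, BUB1 and BUB1B of the spindle checkpoint and PLK1 differed by -0.14, -0.03, -0.19 and -0.19. The changes of PLK1 and BUB1B hang on single arrays. That of PLK1 was 0.00 without untreated replicate 1 and -0.42 without untreated replicate 3. That of BUB1B was -0.39 and 0.03 without the same arrays. With 1 array left out, BUB1 ran from -0.09 to 0.03 and CCNB1 from -0.21 to 0.01. The others stayed below 0, CENPA from -0.22 to -0.05 and CDC20 from -0.27 to -0.03. CCNA2 ran from -0.21 to -0.09 and TOP2A from -0.23 to -0.12.

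UBE2C, the ubiquitin-conjugating enzyme of the anaphase-promoting complex, is the member whose probes disagree in their call. Its brighter probe gave 11.31, 11.11 and 11.40 untreated and 11.32, 11.02 and 11.27 after ODN2006, a change of -0.07. Its dimmer probe gave 6.63, 6.36 and 7.19 against 5.66, 6.01 and 5.96, all ODN2006 values below all untreated ones, a change of -0.85 ± 0.20 (SE) that passed (limma adjusted p = 0.0325, and 0.0127 with the replicate block). The call at the dimmer probe was lost under 9 of 14 other settings, with adjusted p between 0.0127 and 0.215 over the 14, and without background correction the change was -0.37. Without untreated replicate 1 or 3 it was 0.0503 or 0.0976, and without ODN2006 replicate 1, 2 or 3 it was 0.122, 0.0580 or 0.0638. Which transcripts the probes report was not analysed here. Of the 9 members with several tested probes, 7 had all their probes on the same side of 0, and the exceptions, CDK2 and PCNA, had changes of -0.02 and 0.05 and of -0.07 and 0.11. For MCM7, whose 3 probes changed by 0.03, 0.34 and 0.17, no probe passed. At the probe with 0.34 the groups were apart, with 7.97, 8.06 and 8.08 untreated and 8.32, 8.35 and 8.47 after ODN2006.

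Over the whole set, 5 of 35 members (14.3%) had all ODN2006 values below all untreated values, CCNE1, MCM2, AURKA, CENPF and MKI67, as did 12.4% of all tested genes. CCND1 was the member with the groups apart in the other direction (2.86%, against 8.48%). Lower values in all 3 same-numbered pairs were found for 13 members (37.1%), 8 of them mitotic, and for 28.7% of all tested genes, and higher values in all 3 pairs for 2 members, CCND1 and RRM2, against 15.9%. The lean towards lower values depends on the scaling: 26 of 35 members lay below 0 after quantile normalization, 21 with median scaling and 22 in the deposited log2 values, which appear to have been normalized within each group, with medians of -0.08, -0.02 and -0.03, beside -0.05, -0.04 and -0.02 over all tested genes. With 1 array left out, 22 to 30 members lay below 0.

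Members also differed between replicate numbers. Averaged over both groups, the range between replicate numbers was larger than the treatment change for 27 of 35 members (77.1%), close to the 71.6% of all tested genes. A range over 3 replicate numbers, each with fewer arrays than a group, tends to exceed a difference between the groups even with no effect. These shares therefore do not rank replicate number against treatment. On the replicate 3 arrays 9 members were lowest in both groups, among them MCM3, MCM6, MCM7, CCND3, E2F2, CDC20 and PLK1, and 7 were highest in both groups, among them PCNA, TYMS, RRM2, CCNB1 and BUB1B. PLK1 stood at 6.97, 6.69 and 6.13 on the untreated arrays and at 6.46, 6.41 and 6.35 after ODN2006. BUB1B ran the opposite way, with 7.23, 7.57 and 8.08 and then 7.24, 7.36 and 7.69. The split cuts across the phases, since S phase genes and mitotic genes are found on both sides of it. Across the 35 members, the deviations of same-numbered arrays from their group means correlated at 0.42, 0.45 and 0.62, as a description of points that share arrays. Such shares on replicate 3 were 20.0% lowest and 15.9% highest among all tested genes, and 25.7% and 20.0% among the members.

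**Figure D4:**
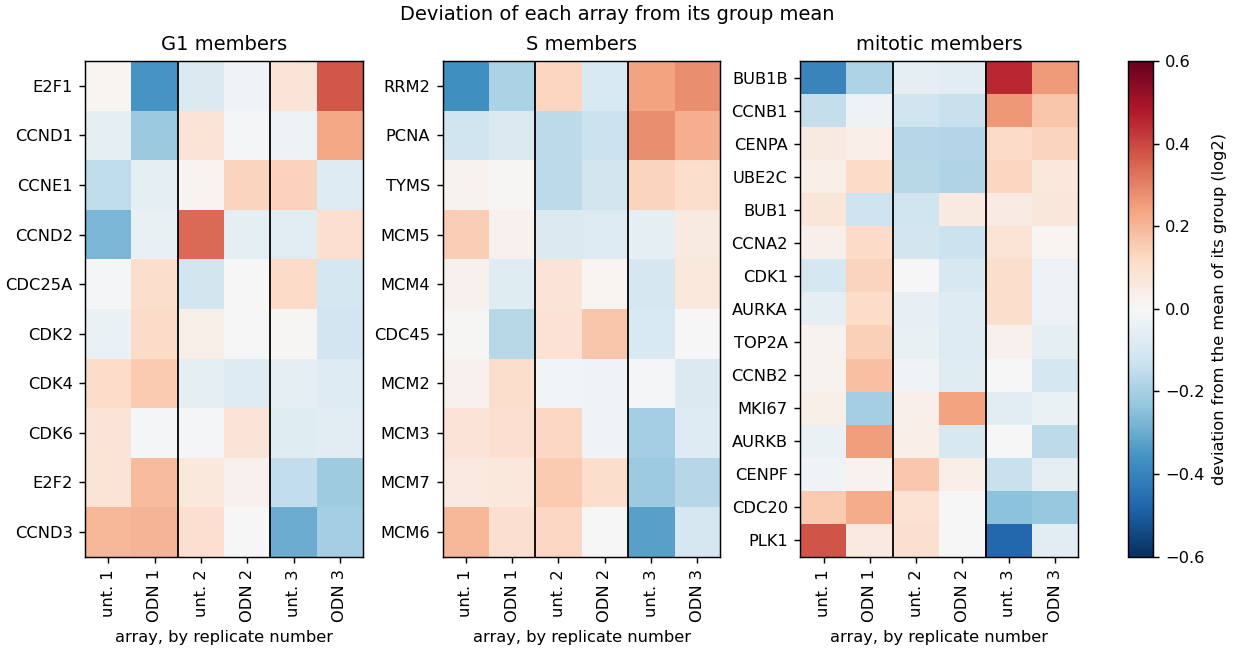
Deviation of each array from the mean of its group (colour, log2) for the detected members, with the untreated (unt.) and ODN2006 (ODN) arrays of a replicate number side by side and genes sorted by their mean deviation on replicate 3. PCNA, RRM2 and BUB1B are high and CCND3, CDC20 and PLK1 low on both replicate 3 arrays.

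The rest of the cell cycle machinery was read from 8 further lists of 159 genes, of which 133 were tested. One gene rose and 4 fell, 0.752% and 3.01% of the tested genes against 3.41% and 1.81% of all genes, and 3 rose and 8 fell with the replicate block, 2.26% and 6.02% against 4.65% and 4.11% of all genes. The riser was CDKN1A, the gene of the CDK inhibitor p21. Its values were 10.21, 10.09 and 9.74 untreated and 11.99, 11.75 and 11.84 after ODN2006, which do not overlap, with a change of 1.85 ± 0.16 (SE), 3.59-fold (limma adjusted p = 1.31e-05). Its second probe was detected on no untreated array and on all 3 ODN2006 arrays. CDKN1A and CCND1 thus rose side by side, an inhibitor and an activator of G1 kinases.

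Of the other CDK inhibitors of that family, CDKN1C passed as lower. CDKN1C, the gene of p57, had 7.18, 6.76 and 6.89 untreated and 5.72, 5.85 and 6.28 after ODN2006, groups that are apart, and it fell by 1.00 ± 0.18 (SE) on the log2 scale, 1.99-fold (limma adjusted p = 0.00576). With no filter on dim probes it did not pass (adjusted p = 0.0614), and without background correction the change was -0.44. CDKN1B, the gene of p27, had 7.39, 7.17 and 7.24 against 7.01, 6.56 and 6.25. Its change of -0.66 ± 0.19 (SE) did not pass (limma adjusted p = 0.0750) and passed with the replicate block (0.0181). Its second probe passed (change -0.59, limma adjusted p = 0.0385), a call lost under 9 of 14 other settings. CDKN2D and CDKN3 differed by 0.01 and -0.01. The 3 probes of CDKN2A, named after its values were seen, were detected on no array.

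Of 13 tested genes that control CDK activity and its decay, FBXO5 fell. It encodes EMI1, an inhibitor of the anaphase-promoting complex, and its promoter with a CHR element and CCAAT boxes is shown above. A CHR element was also found for 28 of 39 genes with a window in the mitosis list below (71.8%). Whether the element relates to the fall was not tested. The values of FBXO5 were 9.04, 8.88 and 9.10 untreated and 7.90, 8.09 and 7.97 after ODN2006, with no overlap. The fall was 1.02 ± 0.14 (SE) on the log2 scale, 2.03-fold (limma adjusted p = 0.000723), and its dimmer probe, detected on 1 ODN2006 array, changed by -0.59 and did not pass. Of 15 tested genes of the RB, E2F and DREAM list, E2F8, a repressor of E2F targets, fell, with 6.09, 6.35 and 6.20 against 5.23, 5.44 and 5.19 (change -0.93 ± 0.15 SE, limma adjusted p = 0.00195). E2F8 was detected on 1 ODN2006 array only, so its ODN2006 level is near background, and without background correction the change was -0.31.

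Of 44 tested genes of mitosis, KIF20A, a kinesin of cytokinesis, fell, with 8.32, 8.26 and 8.30 untreated and 7.84, 7.79 and 7.64 after ODN2006 (change -0.53 ± 0.14 SE, limma adjusted p = 0.0457). Its groups are apart, but the call was lost when any of the 6 arrays was left out, with adjusted p from 0.0566 to 0.178. The median change of this list was -0.12, beside -0.15 for the mitotic members. Of 14 tested genes of origin licensing none passed, and GMNN, the licensing inhibitor geminin, and CDC7, the kinase that fires origins, had the largest changes with -0.47 and -0.43. Of 25 tested genes of DNA synthesis none passed, with RFC4, a clamp loader subunit, at -0.36 and PRIM1, a primase subunit, at -0.31. The same held for 6 checkpoint genes, with CHEK1 at 0.24 and ATM at -0.20, and for 11 genes of the anaphase-promoting complex, with ANAPC10 at 0.40 and ANAPC4 at -0.34. With the replicate block WEE1 and SGO1 also rose (0.45 and 0.49), and CDKN1B, CDT1, CENPO and NEK2 also fell (-0.66, -0.42, -0.56 and -0.45).

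**Figure D5:**
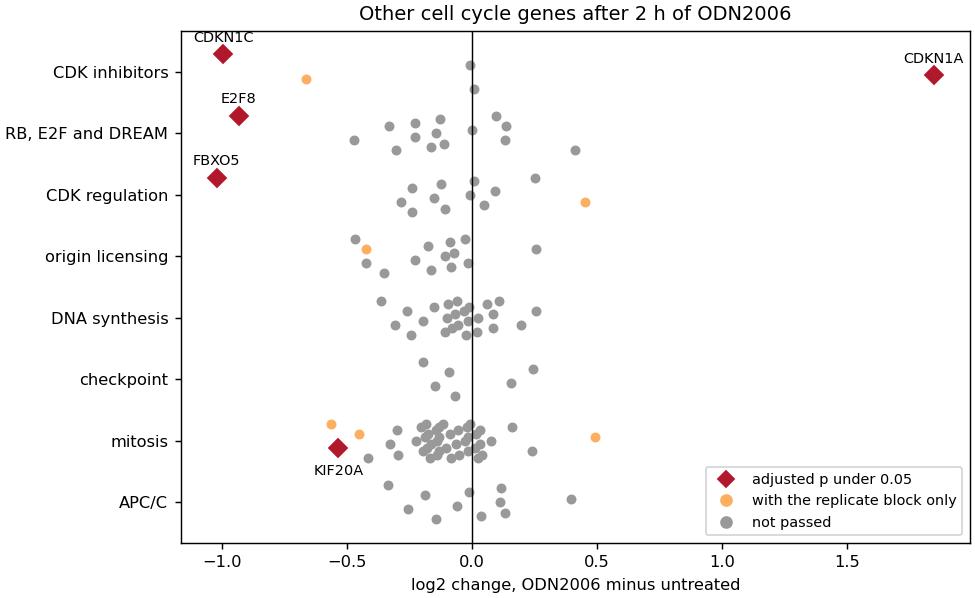
Log2 change after ODN2006 (horizontal axis) of 133 tested cell cycle genes outside the set, in 8 lists (rows, with points spread vertically to keep them apart). Diamonds mark the genes that passed, CDKN1A at 1.85 and CDKN1C, E2F8, FBXO5 and KIF20A between -1.02 and -0.53, and orange points those that passed with the replicate block alone.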

How the data were processed

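The authors deposited a table of raw probe intensity, non-normalized per the file headers, with a detection p-value per probe and array per the file headers. The submitters' processing notes name limma for the deposited log2 values, whose medians are equal within a group and differ between groups. Its steps are not given in the sources used here, and these values served as an alternative. Both were given for 6 arrays, 3 per group.

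Intensities were background-corrected (normexp, negative controls inferred from detection p-values), given an offset of 16 and quantile-normalized (neqc, limma 3.58.1, R 4.3.3). The 13816 probes with a detection p under 0.01 on all 3 arrays of a group were tested with lmFit and eBayes, two-sided, with Benjamini-Hochberg adjustment and a threshold of 0.05. The platform annotation gave 30107 probes 1 symbol, 8 several and 17103 none, and 30068 symbols were updated through RefSeq gene IDs. A gene's brightest tested probe stands for it. The fit was tested on simulated data.

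The titles number the replicates, and deviations of same-numbered arrays correlated at 0.41, 0.35 and 0.46 over the tested probes, so the numbers were taken to pair the arrays, by the data and not by the labels, and the fit with the block was run beside the unblocked one. Members and lists were chosen with earlier results of these data known. Array values are given by rule for called members, for members detected in 1 group only (none) and for the 3 highest and 3 lowest changes of each group, as far as they lie above and below 0, and of other lists for up to 4 called genes or else the changes of the 2 largest. PLK1, BUB1B, CDKN1B, the second probe of UBE2C and genes named for their replicate pattern or the replicate block were chosen after their values were seen. Slide and scan date are not given in the files used here, and precision is limited by the 6 arrays. Second probes of UBE2C and CDKN1B were run under the other settings after seeing the data.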

Additional observations from a re-analysis of the deposited data

How the results depend on the processing

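The rise of CCND1 passed under all 15 other settings, with changes of 0.79 to 1.01 and adjusted p from 0.000433 to 0.0235. The counts of 1 member higher and 0 lower were the same under all of them. The replicate block gave 3 other cell cycle genes higher in place of 1 and 8 lower in place of 4. No member's call at its brightest probe changed with it. Without a filter on dim probes 2 other genes were lower, and over the fits that leave out an array 3 to 4. Among all genes, the block gave 405 higher and 358 lower in place of 297 and 158, and no filter left 58 lower. Medians over leave-one-out fits ran from -0.07 to 0.03 for the G1, -0.13 to -0.02 for the S and -0.16 to -0.08 for the mitotic members, and the G1 median lay above 0 with median scaling (0.01), deposited values (0.02) and averaged probes (0.01). The S median of -0.07 was 0.00, just above 0, with median scaling and -0.02 in the deposited values. The median untreated level of the tested members was 9.92, and 10.07 without background correction, since background stays in the signal. The fall of KIF20A was also lost with median scaling (adjusted p = 0.0769), the deposited values (0.0584) and no filter (0.0579). Probe signal over background limits the data for CCND2, E2F8 and the dimmer UBE2C probe.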
